A study of Mus musculus with 16 samples.

Results

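The genes described here encode the nuclear part of respiratory complex I in mouse prelimbic cortex (PL), read in ribosome-bound RNA of neurons that project to 3 targets. They were chosen by name, as every gene whose symbol joins Nduf, one of the letters a, b, c, s, v, ab or af, and a number. This rule found 45 genes among the 39017 rows of each deposited table, of which 37 encode structural subunits and 8 encode assembly factors (the Ndufaf genes). Ndufb1 is not analysed here.

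The study used viral translating ribosome affinity purification (vTRAP) in C57BL/6J mice, an inbred strain. The virus AAV-IV-GFPL10, which carries the ribosomal protein L10 fused to green fluorescent protein (GFP), was given to PL, and CAV-Cre, a canine adenovirus taken up by axon endings, to 1 of 3 targets, which were the ventral tegmental area (VTA), the basolateral amygdala (BLA) and the nucleus accumbens (NAc). Polysomes were then captured with GFP antibodies. The 16 samples form 6 groups, which are immunoprecipitate (IP) and total RNA (Input) for each target, with 3 and 3 libraries for PL-NAc, 3 and 3 for PL-BLA, and 2 and 2 for PL-VTA. All 6 groups carry the GFPL10 virus in PL and CAV-Cre in 1 target. No group without the viruses, and no age, sex or promoter, is named in the labels. Nor do the labels say whether replicates are separate animals or pools, so p-values cover the spread among these libraries alone, and that spread may be technical.

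Complex I, NADH:ubiquinone oxidoreductase, is the entry point of the mitochondrial respiratory chain. It takes electrons from NADH in a matrix arm, passes them along iron-sulfur clusters to ubiquinone, and uses the energy to pump protons through a membrane arm. Mammals encode part of the membrane arm in the mitochondrial genome and everything else in the nucleus. The nuclear subunits divide into a catalytic core shared with bacteria and accessory (supernumerary) subunits that surround it, while assembly factors help to build the enzyme and are absent from the finished complex. Neurons spend much of their energy on ion pumping and depend on the respiratory chain for it.

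The deposited tables hold 1 comparison of IP with Input per projection, with the mean normalized count, the log2 fold change, its standard error (SE), a DESeq2 Wald p-value and an adjusted p-value for each gene. No value per library was used here, so each member is given by its fitted fold change and SE in each projection. All values for genes and gene lists below are the authors' fold changes or are counted from them. A gene is called higher or lower at a Benjamini-Hochberg adjusted p under 0.05 over all genes tested, which numbered 17998, 17668 and 15440 in the tables of PL-NAc, PL-BLA and PL-VTA. Summed over genes, the mean normalized counts came to between 15437849 and 16520414 per table, and complex I members took 0.902%, 0.831% and 0.926% of them in PL-NAc, PL-BLA and PL-VTA. Every member was tested in every table, with means from 338 (Ndufaf6 in PL-BLA) to 11401 (Ndufa4 in PL-VTA). Members' SE had a median of 0.08 in PL-NAc and PL-BLA and of 0.14 in PL-VTA, where smaller changes could not be detected. Direction was read as IP over Input from the glial markers, which are lower in the IP under that reading.

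In the authors' deposited tables, 38 of 45 complex I members were higher in the IP of PL-NAc, 32 in that of PL-BLA and 35 in that of PL-VTA, and none was called lower in any of them. The share called higher over all genes tested was 21.4%, 20.8% and 11% in PL-NAc, PL-BLA and PL-VTA, and the share called lower was 21.7%, 20.2% and 10.5%. Since the members are abundant transcripts, the nearer background is the genes with a mean of at least 50, of which 31%, 29.2% and 13.7% were called higher. The members' median log2 fold change was 0.48, 0.32 and 0.50 in PL-NAc, PL-BLA and PL-VTA, beside 0.06 in each projection for all genes with a mean of at least 50. Changes were moderate. The median structural subunit stood 1.46-fold above Input in PL-NAc and PL-VTA and 1.25-fold above it in PL-BLA in the authors' deposited tables.

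That direction is set against the whole Input tissue. It turned in 2 projections when the zero point was moved to a list of excitatory neuron markers. With the median of 8 excitatory neuron markers taken as 0, the members' median became -0.14 in PL-NAc and -0.22 in PL-BLA, and stayed positive at 0.34 in PL-VTA, computed from the authors' deposited tables. On that scale 7 members were higher and 18 lower in PL-NAc, 1 was higher and 30 were lower in PL-BLA, and 21 were higher and none lower in PL-VTA. All genes shifted with the zero point too: 2.32% were higher and 68.2% lower in PL-NAc, 2.78% and 62.6% in PL-BLA, and 5.69% and 14.8% in PL-VTA. The excitatory markers themselves had medians of 0.62, 0.55 and 0.16, with 8, 7 and 2 of 8 called higher and 0, 0 and 2 called lower, in the authors' deposited tables. In PL-VTA they were mixed, with Lingo1 (0.57) and Nrgn (0.54) higher and Neurod6 (-0.82) and Camk2a (-0.37) lower. The members' value of 0.34 in PL-VTA rests on that mixed list. Relative to the tissue, complex I transcripts were thus more abundant in the IP, while in PL-NAc and PL-BLA their median lay below that of excitatory neuron markers.

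Markers of other cell types mostly went the other way. The sign of the fold changes was read from the glial markers, so their direction is set by that reading. In the authors' deposited tables, all 8 oligodendrocyte and all 8 microglial markers were lower in the IP of each projection, with medians of -2.94 and -2.85 in PL-NAc, -2.31 and -2.23 in PL-BLA, and -2.49 and -2.05 in PL-VTA. Of 8 astrocyte markers 8, 7 and 7 were lower (medians -1.78, -1.13 and -1.29), of 6 inhibitory neuron markers 6, 6 and 4 (-2.00, -1.89 and -1.02), and of 6 endothelial and mural markers 5, 6 and 3 (-1.54, -1.40 and -1.04), and none of these 3 lists had a member called higher. The part of this depletion in the complex I values was not tested. The IP is ribosome-bound RNA and the Input is total RNA. Which cells a transcript came from and how much of it was on ribosomes cannot be told apart in this comparison.

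**Figure D1:**
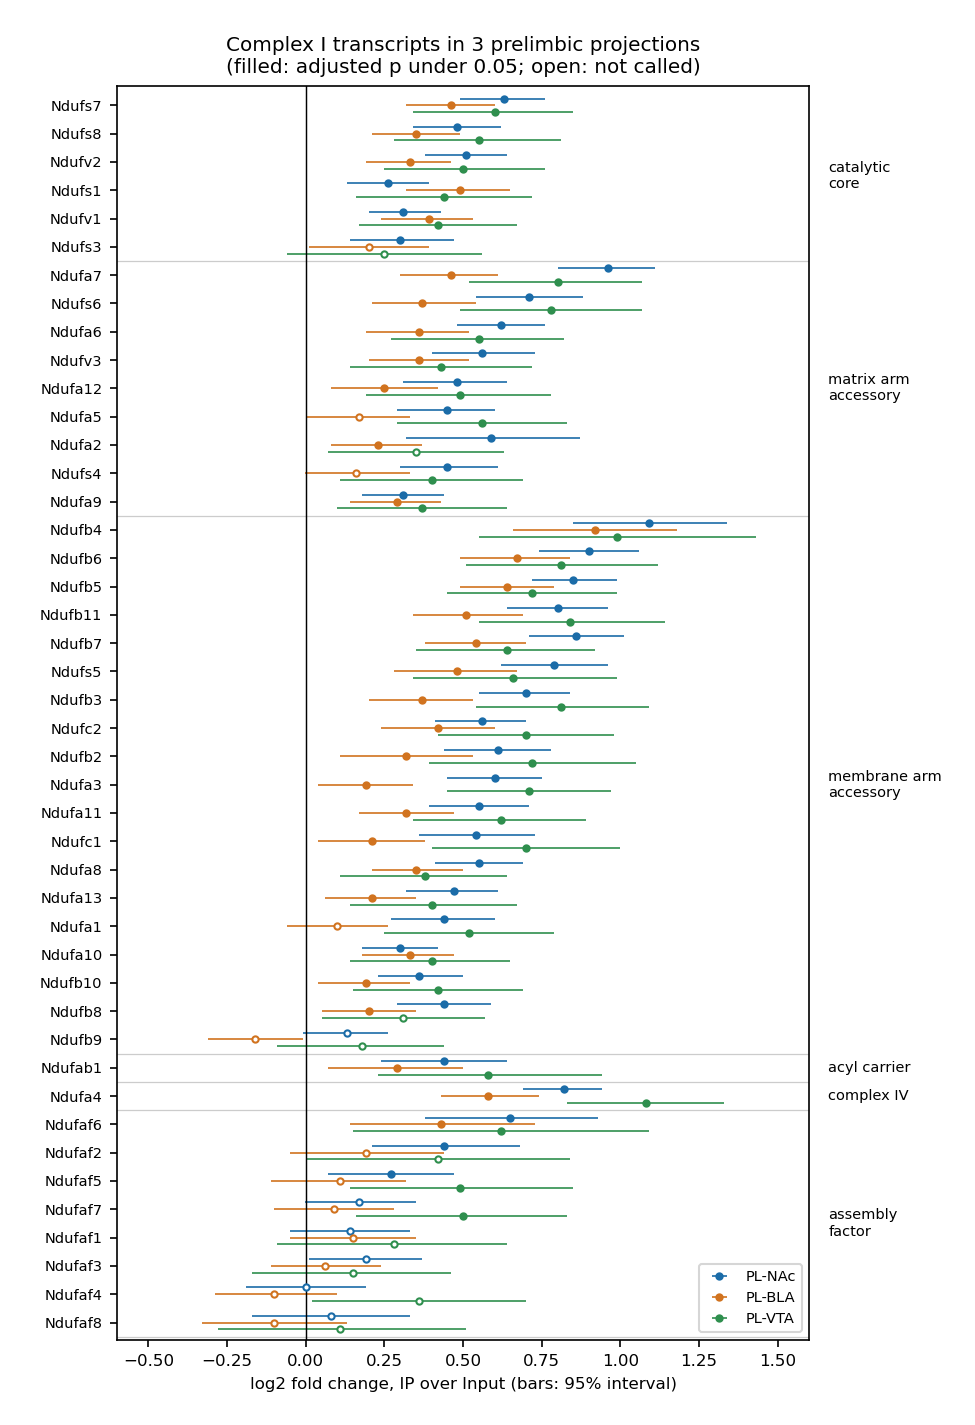
Log2 fold change of IP over Input for 44 of the 45 complex I members (x axis) in PL-NAc, PL-BLA and PL-VTA, grouped by role, with 95% intervals from the authors' SE. Filled points passed an adjusted p of 0.05, and no point was called lower, although with excitatory neuron markers as the zero point the members' median falls to -0.14 in PL-NAc and -0.22 in PL-BLA.

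In the authors' deposited tables, 35, 31 and 32 of 37 structural subunits were higher in PL-NAc, PL-BLA and PL-VTA, with medians of 0.55, 0.33 and 0.55. For the 8 assembly factors the counts were 3, 1 and 3, with medians of 0.18, 0.10 and 0.39. These are shares of 37.5%, 12.5% and 37.5%, beside 31%, 29.2% and 13.7% of all genes with a mean of at least 50, so the share was near that background in PL-NAc, below it in PL-BLA and above it in PL-VTA. Across the projections, 30 members were higher in all 3, namely 29 subunits and the assembly factor Ndufaf6. A further 6 members (Ndufa1, Ndufa2, Ndufa5, Ndufaf5, Ndufb8 and Ndufs4) were called in 2 projections and 3 (Ndufaf2, Ndufaf7 and Ndufs3) in 1. Those called in none included the assembly factors Ndufaf1, Ndufaf3, Ndufaf4 and Ndufaf8 and the subunit Ndufb9. Assembly factors are also the rarer transcripts, so their SE is wider, and no test of subunits against assembly factors was made because members are not replicates.

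The nuclear core subunits carry the flavin, the iron-sulfur clusters and the ubiquinone site, and Ndufv1, Ndufv2, Ndufs1, Ndufs7 and Ndufs8 were higher in the IP of every projection. Ndufv1, which holds the flavin and binds NADH, was 0.31 (SE 0.06, adjusted p 9.2e-07 by DESeq2) in PL-NAc, 0.39 (SE 0.07, adjusted p 6.2e-07) in PL-BLA and 0.42 (SE 0.13, adjusted p 0.00735) in PL-VTA in the authors' deposited tables. Its partner Ndufv2 was 0.51 (SE 0.06), 0.33 (SE 0.07) and 0.50 (SE 0.13), called in each of the authors' deposited tables. Ndufs1, the largest subunit by coding length and a carrier of iron-sulfur clusters, was 0.26 (SE 0.07), 0.49 (SE 0.08) and 0.44 (SE 0.14) in the authors' deposited tables, and its order of projections was unlike that of most subunits, with PL-BLA above PL-NAc.

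Nearer the ubiquinone site, Ndufs7 and Ndufs8, both iron-sulfur proteins, were the core subunits with the highest values in PL-VTA. Ndufs7 stood at 0.63 (SE 0.07), 0.46 (SE 0.07) and 0.60 (SE 0.13) and Ndufs8 at 0.48 (SE 0.07), 0.35 (SE 0.07) and 0.55 (SE 0.14) in PL-NAc, PL-BLA and PL-VTA in the authors' deposited tables. Ndufs3, a matrix arm subunit without a cluster, was higher in PL-NAc at 0.30 (SE 0.08) and was not called in PL-BLA at 0.20 (SE 0.10, DESeq2 adjusted p 0.0791) or PL-VTA at 0.25 (SE 0.16, adjusted p 0.279) in the authors' deposited tables.

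Accessory subunits of the matrix arm were called in 9, 7 and 8 of 9 cases in PL-NAc, PL-BLA and PL-VTA, with medians of 0.56, 0.29 and 0.49 in the authors' deposited tables. The highest of them in each projection was Ndufa7, at 0.96 (SE 0.08), 0.46 (SE 0.08) and 0.80 (SE 0.14) in the authors' deposited tables. Ndufs6, a zinc-binding subunit, followed in PL-NAc at 0.71 (SE 0.08) and PL-VTA at 0.78 (SE 0.15), with 0.37 (SE 0.08) in PL-BLA, in the authors' deposited tables. Ndufa6, a protein that docks the acyl carrier on the matrix arm, was 0.62, 0.36 and 0.55 (SE 0.07, 0.08 and 0.14). Ndufs4, whose loss causes Leigh-like encephalopathy in mice, was higher in PL-NAc at 0.45 (SE 0.08) and PL-VTA at 0.40 (SE 0.15) and was not called in PL-BLA at 0.16 (SE 0.08, DESeq2 adjusted p 0.112) in the authors' deposited tables. Ndufa5 had a similar set of values, 0.45 (SE 0.08), 0.17 (SE 0.08) and 0.56 (SE 0.14), without a call in PL-BLA. Ndufa2, a thioredoxin-like subunit, was called in PL-NAc at 0.59 (SE 0.14) and PL-BLA at 0.23 (SE 0.07) but not in PL-VTA at 0.35 (SE 0.14) in the authors' deposited tables. Ndufa9, Ndufa12 and Ndufv3 were higher in every projection, between 0.25 and 0.56.

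The membrane arm holds the largest group, with 18, 17 and 17 of 19 accessory subunits higher and medians of 0.56, 0.33 and 0.66 in PL-NAc, PL-BLA and PL-VTA in the authors' deposited tables. Ndufb4 led the members in PL-NAc and PL-BLA and was next to Ndufa4 in PL-VTA, at 1.09 (SE 0.12, DESeq2 adjusted p 3.4e-17), 0.92 (SE 0.13, adjusted p 6.9e-11) and 0.99 (SE 0.22, adjusted p 1.5e-04) in the authors' deposited tables, or 2.13-fold, 1.89-fold and 1.99-fold above Input. Ndufb6 was 0.90 (SE 0.08), 0.67 (SE 0.09) and 0.81 (SE 0.15) and Ndufb11 0.80 (SE 0.08), 0.51 (SE 0.09) and 0.84 (SE 0.15), and both were called in each of the authors' deposited tables. Ndufb5 was 0.85 (SE 0.07), 0.64 (SE 0.08) and 0.72 (SE 0.14) in the authors' deposited tables. The 3 highest members were thus Ndufb4, Ndufa7 and Ndufb6 in PL-NAc, Ndufb4, Ndufb6 and Ndufb5 in PL-BLA, and Ndufa4, Ndufb4 and Ndufb11 in PL-VTA. Transcripts of Ndufb4, Ndufb5, Ndufb6 and Ndufb11 match or overlap another annotated gene, so their values are less certain.

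Subunits that face the intermembrane space with disulfide-bonded cysteines, Ndufb7, Ndufs5 and Ndufa8, were each higher in every projection. Their values in the authors' deposited table of PL-NAc were 0.86 (SE 0.08), 0.79 (SE 0.09) and 0.55 (SE 0.07). Ndufa13, also known as GRIM-19, was 0.47, 0.21 and 0.40 (SE 0.07, 0.07 and 0.13), and Ndufa10, a nucleoside-kinase-like protein, 0.30, 0.33 and 0.40 (SE 0.06, 0.07 and 0.13), in the authors' deposited tables. Ndufb8, often used as a protein marker of assembled complex I, was called in PL-NAc at 0.44 (SE 0.08) and PL-BLA at 0.20 (SE 0.08) and not in PL-VTA at 0.31 (SE 0.13) in the authors' deposited tables. Ndufa1, a small X-linked subunit, was not called in PL-BLA at 0.10 (SE 0.08) and was called at 0.44 and 0.52 (SE 0.08 and 0.14) in PL-NAc and PL-VTA in the authors' deposited tables. The exception in this group was Ndufb9, which binds the second acyl carrier of the enzyme. It was 0.13 (SE 0.07), -0.16 (SE 0.08, DESeq2 adjusted p 0.0864) and 0.18 (SE 0.13) in the authors' deposited tables, and it was the lowest member in PL-BLA and the lowest subunit in PL-VTA.

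A pair of symbols was counted in neither arm's list, although the first of them, Ndufab1, belongs to both arms. Ndufab1, the mitochondrial acyl carrier protein, was higher at 0.44 (SE 0.10), 0.29 (SE 0.11) and 0.58 (SE 0.18) in the authors' deposited tables. Ndufa4, first named as a complex I subunit and later assigned to complex IV, was higher at 0.82 (SE 0.06, DESeq2 adjusted p 1.3e-35), 0.58 (SE 0.08, adjusted p 2.8e-12) and 1.08 (SE 0.13, adjusted p 2.8e-15) in the authors' deposited tables. Outside the name rule, Ndufab1-ps, annotated as a pseudogene of the carrier, was called at 0.78, 0.59 and 0.66 with means of 460, 410 and 438 in the authors' deposited tables. Ndufa4l2, a relative of Ndufa4, had a mean of only 12.9 in PL-NAc, where it was lower at -1.12 (SE 0.43), and was not called at -0.90 (SE 0.42) in PL-BLA or -0.75 (SE 0.43) in PL-VTA in the authors' deposited tables.

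Among the assembly factors, Ndufaf6, which acts on the module around the mitochondrially encoded subunit ND1, was the only one called in every projection. It stood at 0.65 (SE 0.14, DESeq2 adjusted p 1.5e-05), 0.43 (SE 0.15, adjusted p 0.0126) and 0.62 (SE 0.24, adjusted p 0.048) in the authors' deposited tables. Ndufaf5, which hydroxylates an arginine of Ndufs7, was higher in PL-NAc at 0.27 (SE 0.10) and PL-VTA at 0.49 (SE 0.18) and not called in PL-BLA at 0.11 (SE 0.11) in the authors' deposited tables. Ndufaf2, a factor of late matrix arm assembly, was higher in PL-NAc at 0.44 (SE 0.12) and not called at 0.19 (SE 0.13) in PL-BLA or 0.42 (SE 0.21) in PL-VTA in the authors' deposited tables. Ndufaf7, an arginine methyltransferase, was higher in PL-VTA at 0.50 (SE 0.17) and not called at 0.17 (SE 0.09) in PL-NAc or 0.09 (SE 0.10) in PL-BLA in the authors' deposited tables.

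The other assembly factors were not called in any projection, and in PL-VTA, where SE were widest, their values ranged up to 0.36. Ndufaf3 and Ndufaf4, which bind each other and act on the ubiquinone module, were 0.19 (SE 0.09), 0.06 (SE 0.09) and 0.15 (SE 0.16), and 0.0014 (SE 0.10), -0.10 (SE 0.10) and 0.36 (SE 0.17), in PL-NAc, PL-BLA and PL-VTA in the authors' deposited tables. Ndufaf1, part of the membrane arm assembly complex with Ecsit and Acad9, was 0.14 (SE 0.10), 0.15 (SE 0.10) and 0.28 (SE 0.18) in the authors' deposited tables. Ndufaf8, a stabilising partner of Ndufaf5, was 0.08 (SE 0.13), -0.10 (SE 0.12) and 0.11 (SE 0.20) in the authors' deposited tables and was the lowest member in PL-VTA. The lowest 3 members were Ndufb9, Ndufaf8 and Ndufaf4 in PL-BLA and Ndufaf8, Ndufaf3 and Ndufb9 in PL-VTA. With the excitatory marker median as 0, no assembly factor was higher in any projection, and 6 of 8 in PL-NAc and 7 of 8 in PL-BLA were lower. On that scale 68.2% and 62.6% of all genes were also lower in PL-NAc and PL-BLA. Only 2.32%, 2.78% and 5.69% of all genes were higher in PL-NAc, PL-BLA and PL-VTA.

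Complex I assembly factors with other names were described by the same counts. Of 12 listed, 11 had a row, and 4, 3 and 2 of these were higher and 0, 1 and 0 lower in PL-NAc, PL-BLA and PL-VTA, with medians of 0.10, 0.15 and 0.13, in the authors' deposited tables. The shares higher were 36.4%, 27.3% and 18.2%, near the 31%, 29.2% and 13.7% of all genes with a mean of at least 50, so the list as a whole did not stand out and its genes are given as single values. Tmem70, needed for membrane arm and ATP synthase assembly, was higher in each at 0.41 (SE 0.08), 0.37 (SE 0.09) and 0.48 (SE 0.16). Tmem261 (Dmac1) and Atp5sl (Dmac2), both factors of the distal membrane arm, were higher in PL-NAc at 0.61 (SE 0.11) and 0.52 (SE 0.09) and in PL-BLA at 0.45 (SE 0.12) and 0.34 (SE 0.10) in the authors' deposited tables. Ecsit was higher in PL-NAc at 0.32 (SE 0.09) and PL-VTA at 0.55 (SE 0.15), whereas its partner Acad9 was -0.09 (SE 0.09), 0.11 (SE 0.10) and 0.07 (SE 0.18) and uncalled in the authors' deposited tables. Tmem186 was lower in PL-BLA at -0.31 (SE 0.13, DESeq2 adjusted p 0.036) in the authors' deposited table.

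Among subunits of complexes II to V, 35 of 42, 31 of 44 and 31 of 42 tested genes were higher, and 3, 3 and 1 lower, in PL-NAc, PL-BLA and PL-VTA, with medians of 0.47, 0.33 and 0.56 in the authors' deposited tables. Those called lower were Cox4i2, Cox6a2 and Cox6b2 in PL-NAc and PL-BLA and Cox6a2 in PL-VTA, which encode tissue-restricted forms of complex IV subunits. Means in PL-NAc and PL-BLA were only 8.27 and 8.68 for Cox4i2 and 13.8 and 15 for Cox6b2, beside 121 and 131 for Cox6a2. Of 76 mitochondrial ribosomal protein genes 60, 46 and 31 were higher and none lower, with medians of 0.45, 0.31 and 0.43, in the authors' deposited tables. The shares higher in PL-VTA were thus 77.8% of complex I members, 73.8% of complexes II to V and 40.8% of the ribosomal protein genes, and no test between the lists was made. Transcripts of complex I subunits encoded in the mitochondrial genome went the other way, with 6 of 6 tested mt-Nd genes lower and medians of -6.14, -5.01 and -3.0 in the authors' deposited tables. The least changed of the 6, mt-Nd3 (-1.67, -2.09 and -1.04), had means of only 7.2, 11.4 and 10.5. All mt-Nd transcripts are translated inside mitochondria by other ribosomes than the tagged ones, and the part of this in their values was not tested.

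**Figure D2:**
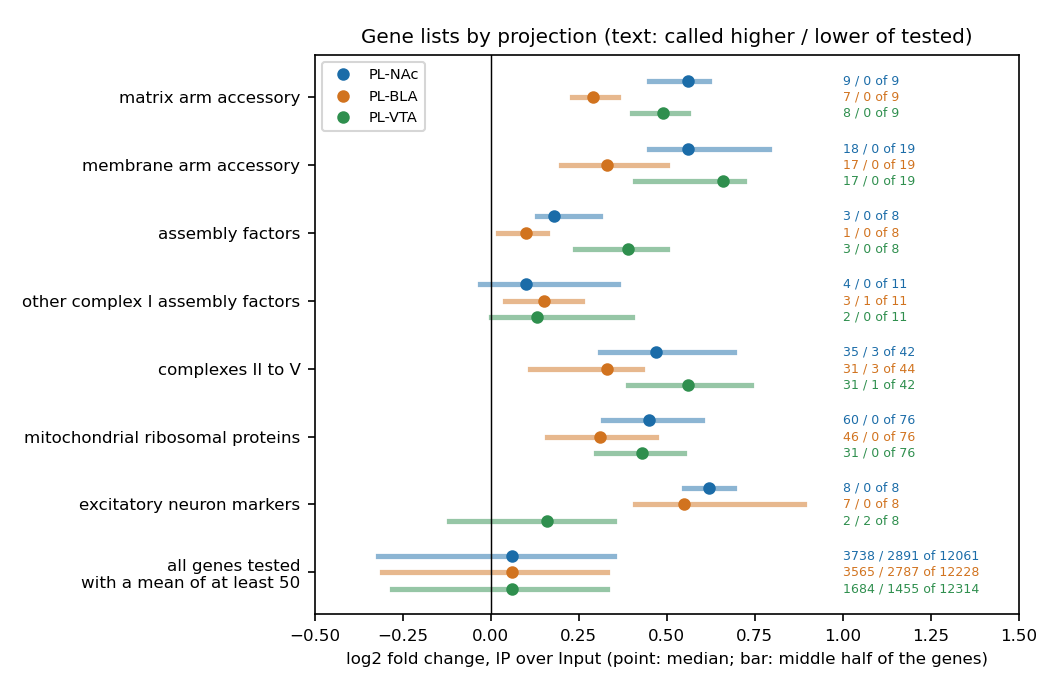
Median (point) and middle range from the lower to the upper quartile (bar) of the log2 fold change of IP over Input for each gene list in each projection, with the number of genes called higher, lower and tested at the right. Subunit lists and complexes II to V lie above the median of 0.06 of all genes with a mean of at least 50, and below the excitatory neuron markers (0.62 and 0.55) in PL-NAc and PL-BLA, so that their sign turns in those projections when these markers are the zero point.

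Of 7 listed regulators of mitochondrial biogenesis, 1, 0 and 0 were higher and 3, 4 and 2 lower in PL-NAc, PL-BLA and PL-VTA, with medians of -0.13, -0.43 and 0.02, in the authors' deposited tables. Signs were mixed, with 3, 2 and 4 of the 7 above 0, and 24%, 22.8% and 11.8% of all genes with a mean of at least 50 were called lower. Ppargc1a, a coactivator of respiratory genes that is high in parvalbumin interneurons, was -0.93 (SE 0.10) in PL-NAc and -1.01 (SE 0.10) in PL-BLA and was not called at 0.19 (SE 0.19) in PL-VTA in the authors' deposited tables. Its relative Ppargc1b was lower in each, at -1.21 (SE 0.15), -0.99 (SE 0.14) and -0.64 (SE 0.25). The ETS factor gene Gabpa was lower in PL-NAc at -0.47 (SE 0.19) and PL-BLA at -0.61 (SE 0.20), and the nuclear receptor gene Esrra in PL-BLA at -0.43 (SE 0.11) and PL-VTA at -0.52 (SE 0.19), in the authors' deposited tables. Yy1 was higher in PL-NAc at 0.42 (SE 0.18), and Nrf1 and Tfam were not called in any projection.

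Promoters of complex I genes are known to hold sites for NRF-1, GABP and YY1. Promoter letters are shown for the members at both ends of the ranking, and a link between them and the fold changes was not tested. RefSeq windows of 300 bases (250 before and 50 after the start, build GRCm38.p6) were matched for 40 of 45 members. Among the others were Ndufa2, Ndufaf6, Ndufb9 and Ndufs1. The sequences below belong to the 3 matched members with the highest mean log2 fold change over the projections (Ndufb4 1.0, Ndufa4 0.83 and Ndufb6 0.79 from the authors' deposited tables) and the 3 with the lowest (Ndufaf3 0.13, Ndufaf4 0.09 and Ndufaf8 0.03). Each runs 5′ to 3′ on the gene's strand for up to 200 bases before the first annotated base of the gene in RefSeq and GENCODE. Capitals mark a match on either strand to GCGCANGCG (NRF-1), CCGGAAG (ETS factors such as GABP), AAGATGGC (YY1), CCAAT or TATAAA.
Ndufb4, chr16:37654454-37654618, minus strand: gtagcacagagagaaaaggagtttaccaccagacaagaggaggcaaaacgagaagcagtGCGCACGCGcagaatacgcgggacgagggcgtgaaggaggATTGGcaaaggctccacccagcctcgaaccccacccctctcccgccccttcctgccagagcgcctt
Ndufa4, chr6:11907498-11907697, minus strand: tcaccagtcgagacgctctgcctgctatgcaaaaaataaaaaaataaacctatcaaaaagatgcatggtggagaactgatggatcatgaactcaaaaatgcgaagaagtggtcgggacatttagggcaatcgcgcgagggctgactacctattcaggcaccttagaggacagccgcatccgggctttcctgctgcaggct
Ndufb6, chr4:40279422-40279621, minus strand: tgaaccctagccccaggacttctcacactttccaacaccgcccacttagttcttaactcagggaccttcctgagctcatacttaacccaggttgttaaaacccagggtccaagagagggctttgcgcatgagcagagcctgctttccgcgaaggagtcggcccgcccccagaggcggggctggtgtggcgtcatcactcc
Ndufaf3, chr9:108567437-108567636, minus strand: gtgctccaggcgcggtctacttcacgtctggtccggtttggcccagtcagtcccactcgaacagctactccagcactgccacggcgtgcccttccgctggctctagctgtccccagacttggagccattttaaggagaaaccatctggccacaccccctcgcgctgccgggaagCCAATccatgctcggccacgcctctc
Ndufaf4, chr4:24897883-24898082, plus strand: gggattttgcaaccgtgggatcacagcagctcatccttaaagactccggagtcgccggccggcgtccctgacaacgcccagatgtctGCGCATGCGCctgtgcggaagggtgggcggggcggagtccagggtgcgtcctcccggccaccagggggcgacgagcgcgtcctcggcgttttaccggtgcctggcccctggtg
Ndufaf8, chr11:120098728-120098927, plus strand: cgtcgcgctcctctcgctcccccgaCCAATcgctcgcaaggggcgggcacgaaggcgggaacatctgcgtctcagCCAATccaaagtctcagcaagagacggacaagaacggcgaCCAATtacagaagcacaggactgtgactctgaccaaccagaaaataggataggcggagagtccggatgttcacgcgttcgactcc

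The printed Ndufb4 stretch holds 1 NRF-1 match and 1 CCAAT match, while those of Ndufa4 and Ndufb6 hold none of the 5 motifs. Ndufaf4 holds 2 overlapping NRF-1 matches, Ndufaf3 holds 1 CCAAT and Ndufaf8 holds 3. Over the whole windows, the NRF-1 letters were in 10 of 40 member promoters (25%), against 6.47% of 27025 promoters of all genes. The YY1 letters were in 8 (20%) against 2.88%, and the ETS letters in 6 (15%) against 9.12%. CCAAT was in 14 (35%) against 37.9%, and TATAAA in 4 (10%) against 14.2%. By class, NRF-1 matches were in 8 of 33 subunit and 2 of 7 assembly factor windows. The median content of G and C was 59% for subunits and 60.7% for assembly factors, above the 52.7% of all promoters. The part of base composition in these shares was not tested, and a match is not a binding site.

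The 3 projections ranked the members alike. Across the 45 members the log2 fold changes of PL-NAc and PL-BLA had a Pearson r of 0.84 and a Spearman rho of 0.81, those of PL-NAc and PL-VTA 0.84 and 0.83, and those of PL-BLA and PL-VTA 0.75 and 0.71. These describe genes measured in the same libraries of each projection, with no library shared between projections. Differences between projections were tested for each gene as the difference of the authors' fold changes divided by its SE, the square root of both squared SE added together, with Benjamini-Hochberg adjustment over all genes.

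Values in PL-BLA were below those in PL-NAc for 40 of 45 members, with a median difference of 0.22, beside -0.01 for all genes. At an unadjusted p under 0.05 there were 22 members (48.9%), beside 6.98% of all genes with a p in both of the authors' deposited tables and 12% of those with a mean of at least 50, and 2 passed adjustment, in a comparison in which 1.14% of 21981 genes did. Ndufa7 was 0.96 in PL-NAc and 0.46 in PL-BLA in the authors' deposited tables, a difference of 0.50 (SE 0.11, 95% interval 0.28 to 0.72, adjusted p 0.00197 by the Wald test of the DESeq2 values). Ndufa3, a small membrane arm subunit, was 0.60 and 0.19, a difference of 0.41 (SE 0.11, interval 0.20 to 0.62, adjusted p 0.0189 by the same test of the DESeq2 values in the authors' deposited tables). The 22 members were all subunits, and none of the 8 assembly factors reached an unadjusted p under 0.05. Even so, 7 of the 8 assembly factors were lower in PL-BLA, with a median difference of 0.14. Their median SE was 0.14, against 0.11 for subunits. Ndufs1, 1 of the 22, had the largest difference in the other direction, at -0.23 (SE 0.11), which did not pass adjustment. With the excitatory markers of each projection as 0, 1 member differed, higher in PL-NAc, beside 0.282% of all genes (0.5% of those with a mean of at least 50) called higher there and 1.43% (2.57%) called higher in PL-BLA.

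PL-VTA stood with PL-NAc. Between these 2 projections no member passed adjustment and none reached an unadjusted p under 0.05, by the Wald test of the DESeq2 values in the authors' deposited tables, beside 7.89% of all genes (11.9% of those with a mean of at least 50) unadjusted and 2.29% of 21559 adjusted. The median difference was -0.05, and its SE for a single member had a median of 0.16, so that differences of the size seen against PL-BLA could be missed. Against PL-BLA, PL-VTA was higher for 44 of 45 members with a median difference (PL-BLA minus PL-VTA) of -0.20, beside -0.03 for all genes. There 12 members (26.7%) had an unadjusted p under 0.05, beside 8.18% of all genes and 12.5% of those with a mean of at least 50, and 2 passed adjustment, beside 3.05% of 21613 genes. They were Ndufa3, at 0.19 against 0.71 and a difference of -0.53 (SE 0.15, interval -0.83 to -0.22, adjusted p 0.0266), and Ndufa4, at 0.58 against 1.08 and a difference of -0.50 (SE 0.15, interval -0.79 to -0.21, adjusted p 0.0319), both by the Wald test of the DESeq2 values in the authors' deposited tables.

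These differences depend on the zero point. With the excitatory marker medians (0.62, 0.55 and 0.16) as 0, 28 members differed between PL-NAc and PL-VTA and 35 between PL-BLA and PL-VTA. All of them were higher in PL-VTA, where those markers were least enriched and mixed in sign. That zero point moves every gene of a projection by one constant, and on it 18.6% and 9.34% of all genes, or 30.6% and 15.9% of those with a mean of at least 50, were also called higher in PL-VTA. Among the latter 0.776% and 1.07% were called lower in PL-VTA. Medians of oligodendrocyte markers were -2.94, -2.31 and -2.49 and those of microglial markers -2.85, -2.23 and -2.05 in PL-NAc, PL-BLA and PL-VTA in the authors' deposited tables. Astrocyte markers had medians of -1.78, -1.13 and -1.29. These lists were all less depleted in PL-BLA and PL-VTA than in PL-NAc, beside complex I medians of 0.48, 0.32 and 0.50. The part of these markers in the differences was not tested. Each projection has its own libraries, so the target and the batch of libraries cannot be told apart.

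**Figure D3:**
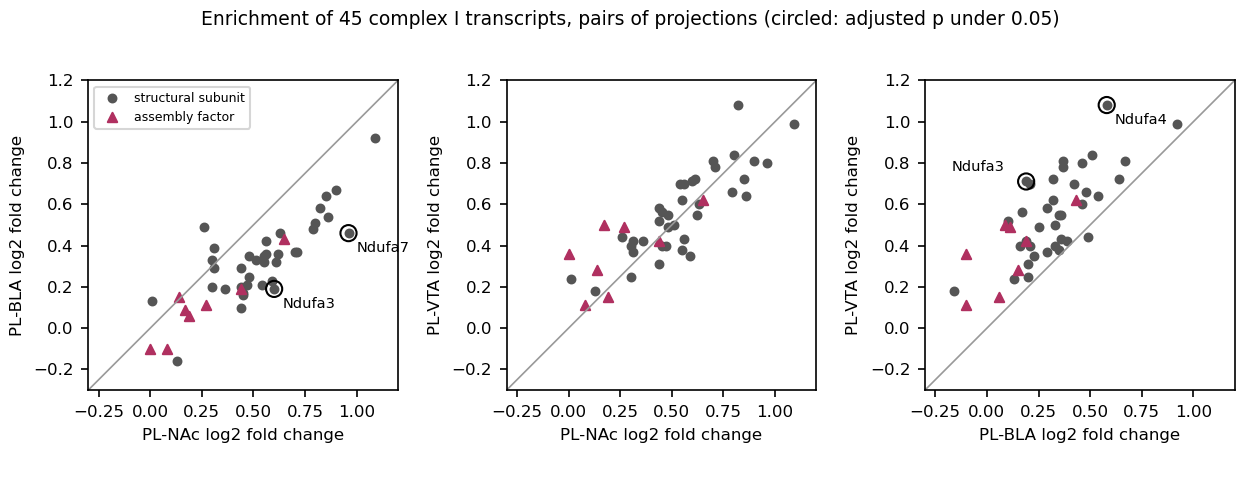
Log2 fold change of IP over Input of each of the 45 complex I members in one projection against another, with the line of equality. Most points lie below the line for PL-BLA against PL-NAc (40 of 45) and above it for PL-VTA against PL-BLA (44 of 45), and circles mark Ndufa7, Ndufa3 and Ndufa4, whose differences passed adjustment on the scale of the authors' deposited tables.

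Shorter subunits had higher values in 2 projections. Across the 37 subunits, log2 fold change and log2 coding length had a Pearson r of -0.55 and a Spearman rho of -0.54 in PL-NAc and of -0.56 and -0.59 in PL-VTA, and of -0.02 and -0.03 in PL-BLA. Protein-coding genes with a mean of at least 50 also had higher medians in the shorter classes. Their medians for coding lengths under 300, from 300 to 600, from 600 to 1200 and from 1200 bases were 0.36, 0.30, 0.12 and -0.02 in PL-NAc, 0.18, 0.15, 0.08 and 0.01 in PL-BLA, and 0.34, 0.22, 0.10 and 0.01 in PL-VTA in the authors' deposited tables. Subunits lay above the median of their class in each, at 0.59, 0.59, 0.39 and 0.29 in PL-NAc, 0.21, 0.36, 0.33 and 0.37 in PL-BLA, and 0.70, 0.63, 0.45 and 0.43 in PL-VTA (5, 22, 6 and 4 subunits). The median coding length was 435 bases for subunits and 772 for assembly factors.

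When each gene was centred on its length class, an alternative chosen after seeing the data, 25, 22 and 20 of 37 subunits were higher in PL-NAc, PL-BLA and PL-VTA, with medians of 0.26, 0.21 and 0.39. The share of all protein-coding genes called higher on that scale was 20.3%, 20.4% and 8.55%. Subunits called lower on it numbered 1, 1 and 0, and of the 8 assembly factors 1 was higher in each projection and 1, 2 and 0 were lower. Among genes under 300 coding bases, the assembly factor Ndufaf8 (222 bases) was 0.08 in PL-NAc and the 5 subunits were 0.44 to 0.82 in the authors' deposited table.

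**Figure D4:**
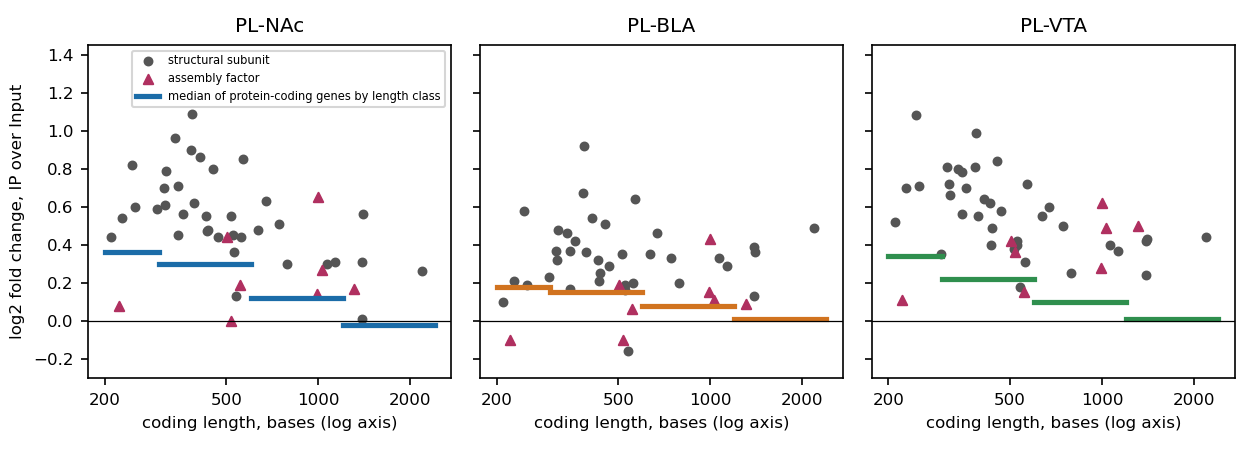
Log2 fold change of IP over Input against coding length in bases (log axis) for the 37 subunits and 8 assembly factors in each projection, with lines at the median of all protein-coding genes in 4 length classes (the outer lines extend only to the plotted range). Subunits fall with length in PL-NAc and PL-VTA (Pearson r -0.55 and -0.56) and not in PL-BLA (-0.02).

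Levels were compared between genes as mean normalized counts per kilobase of the representative transcript, over IP and Input together, so they describe abundance and not enrichment. Subunits ranged from 497 (Ndufb4) to 17651 (Ndufa4) in PL-NAc with a median of 3710, and had medians of 3841 in PL-BLA and 4249 in PL-VTA, computed from the authors' deposited tables. The range of assembly factors was 246 (Ndufaf4) to 798 (Ndufaf3) in PL-NAc with a median of 646, and their medians were 638 and 760 in PL-BLA and PL-VTA. In each projection Ndufa4 was the most abundant member per kilobase, and the subunits Ndufb4 and Ndufab1 lay at the level of the assembly factors. Both of these subunits have near-identical annotated copies. How reads shared with the copies were counted is not given, so the levels of Ndufb4 and Ndufab1 are uncertain. Enrichment did not follow abundance. Among subunits the log2 fold change and the log2 mean count had a Pearson r of -0.38 in PL-NAc and -0.34 in both PL-BLA and PL-VTA, with Ndufb4 the least abundant subunit per kilobase and the most enriched in PL-NAc and PL-BLA, and with Ndufb9 abundant and uncalled.

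**Figure D5:**
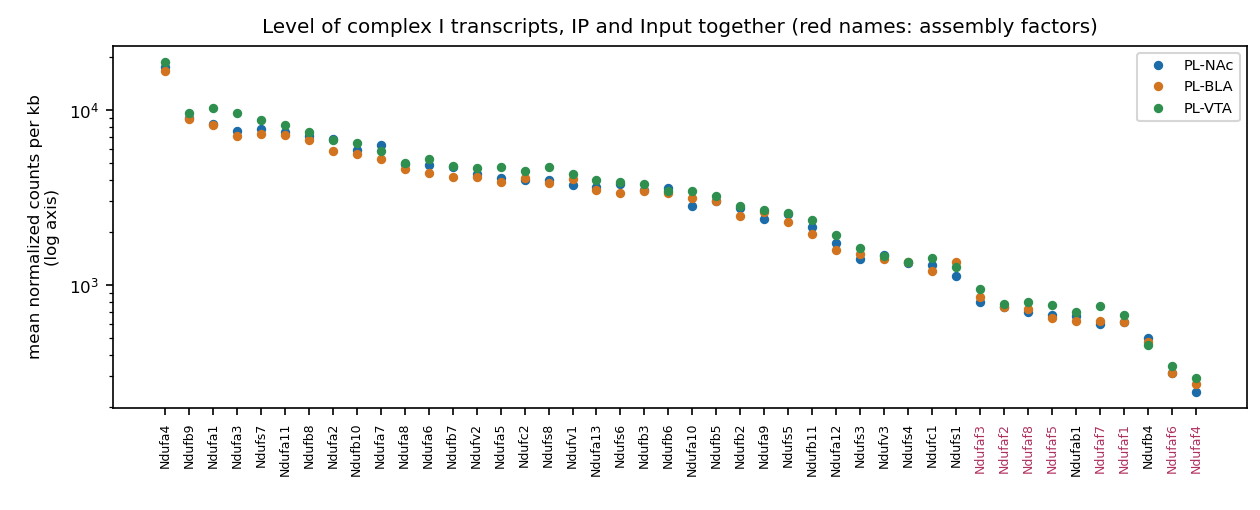
Mean normalized count per kilobase of transcript (log axis) of 44 complex I members over the IP and Input libraries of a projection, ordered by level, with assembly factor names in red. Ndufa4 is highest at 17651 in PL-NAc, and the 8 assembly factors, Ndufab1 and Ndufb4 form the low end in each projection. Levels of Ndufab1 and Ndufb4 are uncertain because both have near-identical annotated copies.

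Some counts are shared with other genes. Transcripts of 14 members matched another annotated gene over at least 150 bases at 95% identity, through retrocopies, overlapping neighbours or repeats, among them Ndufb4 (Ndufb4c), Ndufs3 (Gm12251), Ndufs6 (Ndufs6b) and Ndufab1 (Ndufab1-ps), and how the counting treated such reads is not given in the sources used here. Exons of 7 members share at least 10% of their bases with a neighbour, most in Ndufaf2 (65.6%) and Ndufb6 (39%). The others are Ndufa2, Ndufa13, Ndufb5, Ndufb9 and Ndufb11. All 7 but Ndufa2 and Ndufaf2 are also among the 14. The library chemistry does not mark strand. Values of members in either list are uncertain to that extent. Counts and medians without them kept the direction and the level of those with them.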

How the data were processed

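The submitters' processing notes name STAR 2.3, featureCounts and DESeq2 as tools and mm10 and GRCm38 as builds. Annotation release, strand setting, filters and model formula were not given in the sources used here. SMARTer Ultra Low RNA and Nextera XT kits were used, per the labels' protocols. Signal is the mean normalized read count of a gene over a comparison's libraries, as deposited by the authors. Columns named by the file headers as log2 fold change and SE come from the authors, and appear shrunken toward 0, since genes with few reads lie near it, which understates change in rare transcripts. The Wald score is the authors' and equalled the fold change over its SE. The p-value and adjusted p-value were deposited by the authors, and recomputing the adjustment gave the same values. Rows without a gene symbol, 1252 per table, held at most 0.24% of the mean counts.

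Members, lists and the rule for named genes (all core subunits and assembly factors, the 3 highest and lowest members of each projection, and members that differ between projections) were chosen with earlier results of these data known. Values of 1 member are not reported here, although it counts in the totals. A plan for counts was replaced by the authors' comparisons, since the files hold no counts per library. Calls used an adjusted p under 0.05. Differences between projections were tested with a two-sided Wald z, using Python 3.11.15, numpy 2.4.6, pandas 2.3.3 and scipy 1.17.1. The test was also run on simulated fold changes drawn with the authors' SE. That simulation takes the SE as given, so it checks neither the SE nor the apparent shrinkage. Alternatives were other thresholds, other filters on low means, and fold changes centred on all genes, on excitatory neuron markers or on coding length classes. Coding and transcript lengths, overlaps and copies came from GENCODE release M21 (GRCm38), with 1 representative transcript per gene and blastn 2.17.0 at 95% identity over 150 bases. The submitters' annotation may differ. Promoter sequences are RefSeq's, build GRCm38.p6.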

Additional observations from a re-analysis of the deposited data

Results flagged for a closer look

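The enrichment of 3 subunits differed between projections by the Wald test of the difference, with Benjamini-Hochberg adjustment over all genes, from the DESeq2 values in the authors' deposited tables. Ndufa7 differed between PL-NAc and PL-BLA by 0.50 (SE 0.11, adjusted p 0.00197) on the log2 scale. Ndufa3 was higher in PL-NAc than in PL-BLA by 0.41 (SE 0.11, adjusted p 0.0189), and its PL-BLA minus PL-VTA difference was -0.53 (SE 0.15, adjusted p 0.0266). Ndufa4 had a PL-BLA minus PL-VTA difference of -0.50 (SE 0.15, adjusted p 0.0319). In each case PL-BLA was the lower projection, and at an adjusted p under 0.01 only Ndufa7 remained. These were 2 of 45 members in each comparison. Over all genes, 1.14% passed between PL-NAc and PL-BLA and 3.05% between PL-BLA and PL-VTA. The counts of members changed when excitatory neuron markers were taken as the zero point, as given above. Single libraries could not be examined for outlying values, because the deposited tables hold 1 fitted value per gene and projection.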

How the results depend on the processing

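No paired analysis was possible because the deposited tables hold no value per library, and leaving out a library, a count test by other tools and another size factor scaling were not run for the same reason. The sets of calls rest on 2 or 3 libraries a group, on fold changes that appear shrunken toward 0, and on a zero point that IP and Input do not share by construction.

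Restricting the test to genes with a mean of at least 50, and leaving out members with copies or shared exons (chosen after seeing the data), kept every count within 1.5 times and every median within its spread. Without a filter on low values, assembly factors called higher in PL-VTA went from 3 to 1. At an adjusted p under 0.01, no assembly factor (0 of 8) was higher in PL-BLA or PL-VTA, while members that differed numbered 1 between PL-NAc and PL-BLA and 0 between PL-BLA and PL-VTA. At least 1.5-fold besides the adjusted p, 16, 3 and 17 members were higher in PL-NAc, PL-BLA and PL-VTA, of which 15, 3 and 16 were subunits and 1, 0 and 1 assembly factors. The share of all genes at that threshold was not counted.

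Centred on the median of all genes with a mean of at least 50, which lay at 0.06, 1 member, a subunit, was lower in PL-BLA, 0 assembly factors were higher in PL-VTA, and in PL-NAc Ndufaf4 became -0.06. Centred on the median of the coding length class (chosen after seeing the data), the members' medians were 0.24 in PL-NAc and 0.17 in PL-BLA and the subunits' 0.26, 0.21 and 0.39 in PL-NAc, PL-BLA and PL-VTA, with 0.19 for assembly factors in PL-VTA. On that scale 21 members and 20 subunits were higher in PL-VTA, 2 members were lower in PL-NAc and 3 in PL-BLA (1 subunit in each, with 1 and 2 assembly factors), and 1 assembly factor was higher in each projection. Members that changed sign there were, in PL-NAc, -0.29 for Ndufaf4, -0.28 for Ndufaf8, -0.17 for Ndufb9, and -0.11 for Ndufaf3, in PL-BLA, -0.08 for Ndufa1 and Ndufaf3, and in PL-VTA, -0.23 for Ndufaf8, -0.08 for Ndufaf3, and -0.05 for Ndufb9.

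Centred on the median of the excitatory neuron markers, the members' median was -0.14, -0.22 and 0.34 in PL-NAc, PL-BLA and PL-VTA, that of subunits -0.08, -0.22 and 0.38, and that of assembly factors -0.44 in PL-NAc and -0.45 in PL-BLA. Members higher and lower were 7 and 18 in PL-NAc, 1 and 30 in PL-BLA, then 21 and 0 in PL-VTA, and subunits 7 and 12, 1 and 23, and 21 and 0. Assembly factors higher were 0 in each, with 6 lower in PL-NAc and 7 in PL-BLA, where 68.2% and 62.6% of all genes were lower. Members that differed were 1 between PL-NAc and PL-BLA, 28 between PL-NAc and PL-VTA and 35 between PL-BLA and PL-VTA. In PL-NAc the sign changed on this scale to -0.62 for Ndufaf4, -0.55 for Ndufaf8, -0.50 for Ndufb9, -0.48 for Ndufaf1, -0.45 for Ndufaf7, and -0.44 for Ndufaf3. Further values in PL-NAc were -0.36 for Ndufs1, -0.35 for Ndufaf5, -0.33 for Ndufa10, -0.32 for Ndufa9 and Ndufs3, -0.31 for Ndufv1, and -0.26 for Ndufb10. Then, in the same projection, came -0.19 for Ndufa1, -0.18 for Ndufa5, Ndufab1, Ndufaf2 and Ndufb8, -0.17 for Ndufs4, -0.16 for Ndufa13, -0.15 for Ndufa12, and -0.14 for Ndufs8. Near 0 in PL-NAc were -0.11 for Ndufv2, -0.08 for Ndufa8 and Ndufc1, -0.07 for Ndufa11 and Ndufc2, -0.06 for Ndufv3, -0.03 for Ndufa2 and Ndufa3, and -0.01 for Ndufa6 and Ndufb2. In PL-BLA it changed to -0.48 for Ndufaf3, -0.46 for Ndufaf7, -0.45 for Ndufa1, -0.44 for Ndufaf5, and -0.40 for Ndufaf1. Further values in PL-BLA were -0.38 for Ndufa5 and Ndufs4, -0.36 for Ndufa3, Ndufaf2 and Ndufb10, -0.34 for Ndufa13, Ndufb8, Ndufc1 and Ndufs3, -0.32 for Ndufa2, -0.29 for Ndufa12, and -0.26 for Ndufa9 and Ndufab1. Then, in PL-BLA, came -0.22 for Ndufa10, Ndufa11, Ndufb2 and Ndufv2, -0.19 for Ndufa6, Ndufa8 and Ndufs8, -0.18 for Ndufb3 and Ndufv3, -0.17 for Ndufs6, -0.16 for Ndufv1, and -0.13 for Ndufc2. Closer to 0 in PL-BLA were -0.12 for Ndufaf6, -0.09 for Ndufa7 and Ndufs7, -0.07 for Ndufs5, -0.06 for Ndufs1, -0.03 for Ndufb11, and -0.01 for Ndufb7. In PL-VTA it changed to -0.05 for Ndufaf8, and -0.02 for Ndufaf3. Centring on these markers moves every gene of a projection by one constant, so it changes the zero point and not the order of the members.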
